A study of Rattus norvegicus with 18 samples.

Results

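Nppa, Nppb, Acta1 and Ankrd1 are 4 genes whose transcripts serve as markers of a stressed heart. They were taken as 4 Ensembl identifiers of the 32545 in a TPM table of rat hearts: ENSRNOG00000008176 for Nppa, ENSRNOG00000008141 for Nppb, ENSRNOG00000017786 for Acta1 and ENSRNOG00000018598 for Ankrd1. All 4 passed the filter on low values that 14732 genes passed. TPM, transcripts per 1000000, corrects the reads of a gene for its length and sets the sum of every library to 1000000. Levels can therefore be compared between genes, and a gene's value is its share of a library. The symbols are those given with the identifiers when the genes were chosen, since neither the table nor the reference pairs them. The study asked how AICAR acts in rat hearts injured by doxorubicin. Doxorubicin, an anthracycline, is given to treat cancer, and damage to the heart limits its use. AICAR enters cells, is phosphorylated to an analogue of AMP and so switches on AMPK, a kinase that senses low energy.

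All animals were male Wistar rats, an outbred strain, of 250 g when treatment began; their age is not given in the sources used here. DOX+AICAR rats (n = 6) received doxorubicin at 3 mg/kg per week in 5 weekly intravenous injections and AICAR at 0.5 g/kg under the skin. DOX+saline rats (n = 6) received the same doxorubicin and saline under the skin. Saline rats (n = 6) received intravenous saline in place of doxorubicin. No group received AICAR alone, and the timing of the AICAR injections is not given. Each library is 1 animal's heart. The chambers sampled are not given, which matters here because atrial muscle carries far more Nppa transcript than ventricular muscle. Doxorubicin animals are numbered 1 to 12, and saline animals 51 to 56 with another prefix, so a difference between cohorts and the effect of doxorubicin cannot be told apart.

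Nppa encodes the precursor of atrial natriuretic peptide and Nppb that of brain natriuretic peptide, hormones that muscle cells of the heart release when the wall is stretched. Both bind a guanylyl cyclase receptor, raise cyclic GMP, relax vessels and make the kidney excrete sodium. Acta1 encodes skeletal muscle alpha-actin, the thin filament actin that the rodent heart uses more before birth and again under load. Ankrd1 encodes cardiac ankyrin repeat protein, which binds titin in the sarcomere, is also found in the nucleus and is induced by stretch. In rodents, Nppa, Nppb and Acta1 belong to a fetal gene programme that the ventricle takes up again in hypertrophy and failure.

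The reference table of RefSeq promoters (build GRCr8, not the build to which these reads were aligned) held 3 of the 4 genes. The 250 bases before the annotated start are shown because these 3 genes rose together and their promoters are classic objects of cardiac gene regulation. They lie at chr5:163711934-163712183 (plus strand) for Nppa, chr5:163699758-163700007 (plus strand) for Nppb and chr19:68784195-68784444 (minus strand) for Acta1. Nppa and Nppb are neighbours, with 0 other genes starting between them in that table. Capitals mark matches, on either strand, to the TATA box TATAAA, the M-CAT element CATTCC, the GATA factor motif in its forms AGATAA as well as TGATAA, the Nkx2-5 motif AAGTG and the CArG box of serum response factor. The CArG box was searched only in its strict form CCWWWWWWGG, where W is A or T. Forms that depart from it were not searched.
Nppa: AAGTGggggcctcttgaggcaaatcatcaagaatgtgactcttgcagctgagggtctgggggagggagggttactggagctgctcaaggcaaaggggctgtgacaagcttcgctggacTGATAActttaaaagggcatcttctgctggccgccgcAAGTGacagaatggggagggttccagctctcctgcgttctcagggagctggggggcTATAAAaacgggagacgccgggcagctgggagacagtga
Nppb: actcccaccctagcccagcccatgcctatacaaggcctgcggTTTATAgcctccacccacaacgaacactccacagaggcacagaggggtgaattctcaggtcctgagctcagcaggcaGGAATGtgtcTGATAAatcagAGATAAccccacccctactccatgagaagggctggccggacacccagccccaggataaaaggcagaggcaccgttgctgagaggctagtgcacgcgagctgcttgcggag
Acta1: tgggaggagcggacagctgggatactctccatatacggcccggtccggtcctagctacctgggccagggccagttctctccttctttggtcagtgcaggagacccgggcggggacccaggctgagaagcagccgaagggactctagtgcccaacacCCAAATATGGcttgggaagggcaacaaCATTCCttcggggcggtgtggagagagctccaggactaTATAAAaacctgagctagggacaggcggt
Each of the 3 promoters held 1 match to TATAAA. It ended 33 bases before the start in Nppa and 23 bases before it in Acta1, while in Nppb it lay on the other strand and ended 202 bases before the start. TGATAA stood once in the Nppa and once in the Nppb promoter, where AGATAA stood as well. CATTCC stood once in the Nppb promoter, on the other strand, and once in the Acta1 promoter. The strict CArG box stood only in the Acta1 promoter of these 3, ending 84 bases before the start, and AAGTG stood at 2 places in the Nppa promoter only. Of 27457 promoter windows of this length, 13.1% held TATAAA, 7.87% TGATAA, 10.05% AGATAA, 11.8% CATTCC, 40.6% AAGTG and 1.5% a CArG box. TGANTCA (an AP-1 motif), which 6.36% of windows held, stood in 0 of the 3. CANNTG (the E-box, not in capitals), which 65.2% of windows held, stood at 3 places in the Nppa promoter, 1 of them overlapping an AAGTG, and once in the Acta1 promoter. A match of letters describes these windows and does not show that a factor binds there.

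The effect of doxorubicin was addressed by DOX+saline against saline, and Nppa showed the largest change of the 4 genes. Its level was 4154 to 6655 TPM in DOX+saline hearts (median 5307), against 260 to 1364 TPM in saline hearts (median 541). The groups did not overlap, and the lowest DOX+saline heart stood 3.05-fold above the highest saline heart. Nppa averaged 5390 ± 1161 TPM in DOX+saline and 673 ± 421 TPM in saline (SD, n = 6 each), a rise of 3.20 on the log2(TPM + 1) scale (SE 0.30, 9.21-fold, limma adjusted p = 1.30e-07). Among single genes of each library it stood at place 7 to 17 by TPM in DOX+saline hearts and at place 69 to 608 in saline hearts. The DOX+saline mean lay 4716 TPM above the saline mean, the largest such gain of all 32545 identifiers. Only 52 genes, Nppa included, had at least its log2 change, and none of the others reached its level in DOX+saline. In a whole-tissue library, a change in the number of cells of one type and a change in RNA per cell cannot be told apart, and this holds for each change given here.

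Nppb, the neighbouring peptide gene, rose as well. Hearts of DOX+saline rats had 885 to 1319 TPM (median 1183) and hearts of saline rats 187 to 415 TPM (median 285), with no overlap. The means were 1123 ± 189 TPM in DOX+saline and 291 ± 73.1 TPM in saline (SD, n = 6 each). The log2 change was 1.96 (SE 0.14, 3.90-fold, limma adjusted p = 9.99e-09). Its lowest DOX+saline heart stood 2.13-fold above its highest saline heart.

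Acta1, the actin of the fetal programme, rose 3.43-fold. It had 1662 to 2770 TPM in DOX+saline hearts (median 2268), against 260 to 992 TPM in saline hearts (median 711), again without overlap. It averaged 2194 ± 413 TPM in DOX+saline and 678 ± 240 TPM in saline (SD, n = 6 each), and the log2 change was 1.78 (SE 0.24, limma adjusted p = 6.75e-06). Actin genes are near-identical copies over much of their coding sequence, and how shared reads were counted is not given in the sources used here, so the level of Acta1 is uncertain to that degree.

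Ankrd1 was already abundant in saline hearts and rose less. Its level was 3830 to 4996 TPM in DOX+saline hearts (median 4684), against 2211 to 2761 TPM in saline hearts (median 2514). The groups did not overlap, although the gap was narrow, with the lowest DOX+saline heart 1.39-fold above the highest saline heart. The means were 4491 ± 467 TPM in DOX+saline and 2495 ± 236 TPM in saline (SD, n = 6 each), and the log2 change was 0.85 (SE 0.07, 1.80-fold, limma adjusted p = 4.49e-08). By gain in mean TPM, Ankrd1 stood at place 5 of all identifiers, Acta1 at place 7 and Nppb at place 13.

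All 4 genes were thus called higher in DOX+saline, where 58% of all genes tested were called, 38% higher and 20% lower. In all 4 the groups did not overlap, which held in the same direction for 21.1% of genes. The 4 log2 changes stood at the 90.9th (Ankrd1) to 99.6th (Nppa) percentile of all genes, whose median log2 change was 0.10. That median depends on scaling: with median-of-ratios factors it was -0.0049, and quantile normalization gave -0.059. Of the genes called, 65.5% were higher in DOX+saline as deposited, against 48.0% after median-of-ratios scaling and 41.0% after quantile normalization. Under these scalings Nppa changed by 3.08 and 3.28, Nppb by 1.84 and 1.97, Acta1 by 1.66 and 1.81 and Ankrd1 by 0.72 and 0.83 (log2), all called.

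**Figure D1:**
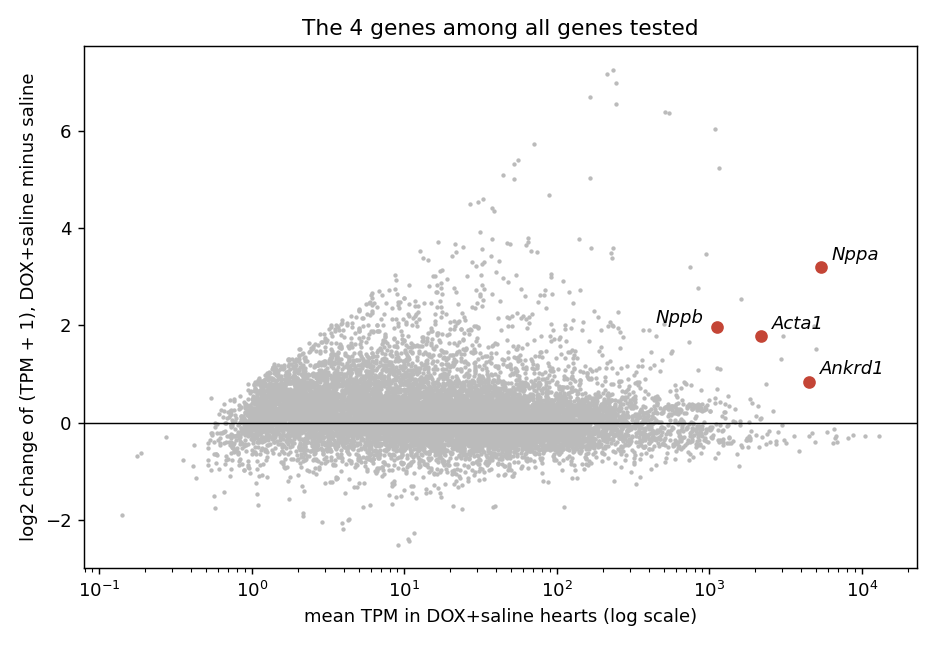
Each point is 1 of 14732 genes, with its mean TPM in DOX+saline hearts on a log axis and its log2 change of (TPM + 1) in DOX+saline minus saline; red points are the 4 genes. Nppa, at 5390 TPM and a log2 change of 3.20, has a larger change than any gene of its level or above, while Ankrd1 has a similar level and a change of 0.85.

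The 4 genes were high in DOX+AICAR hearts too. Nppa averaged 4915 ± 420 TPM in DOX+AICAR (SD, n = 6), with 4316 to 5405 TPM in single hearts, a log2 change of 3.09 against saline (SE 0.30, 8.54-fold, limma adjusted p = 2.70e-07). Nppb averaged 915 ± 74.4 TPM in DOX+AICAR, from 826 to 1009 TPM (log2 change 1.68 against saline, SE 0.14, 3.21-fold, limma adjusted p = 7.23e-08). Each of these hearts lay above every saline heart in both peptides. Acta1 averaged 1635 ± 298 TPM in DOX+AICAR, from 1165 to 2035 TPM (log2 change 1.35 against saline, SE 0.24, 2.56-fold, limma adjusted p = 0.000130). Ankrd1 averaged 3816 ± 189 TPM in DOX+AICAR, from 3623 to 4170 TPM (log2 change 0.62 against saline, SE 0.07, 1.53-fold, limma adjusted p = 1.77e-06). The narrowest gap to saline was that of Acta1, where the lowest DOX+AICAR heart, animal 12, stood 1.17-fold above the highest saline heart, animal 55. All 4 genes were called higher, where 53.3% of genes were called and 34.8% called higher, and in all 4 the groups did not overlap, as in 22.9% of genes in this direction. Of all genes called, 65.4% were higher in DOX+AICAR as deposited, against 47.4% after median-of-ratios scaling and 40.5% after quantile normalization. This comparison uses the same saline libraries as the one before it.

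**Figure D2:**
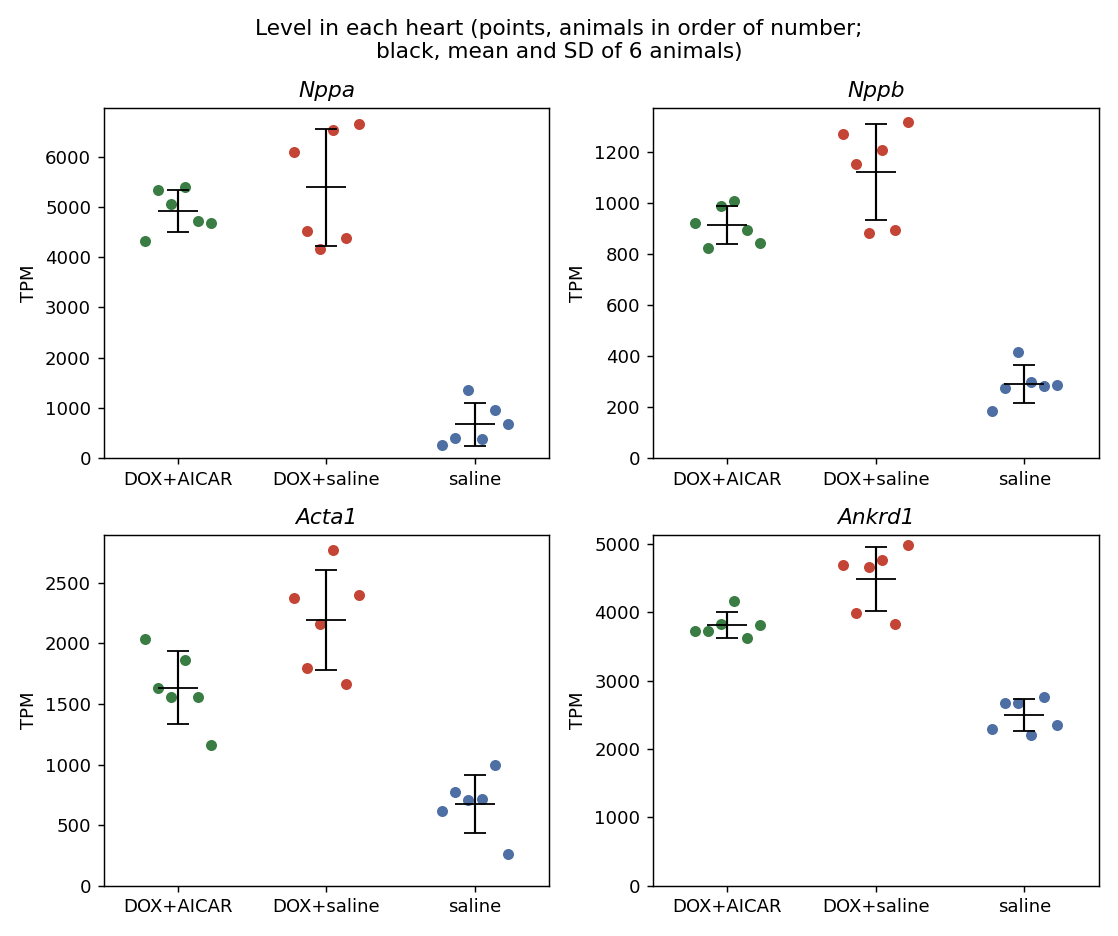
Points are the TPM of single hearts in the DOX+AICAR, DOX+saline and saline groups, ordered by animal number within a group; black lines are the mean and SD of 6 animals, and each axis starts at 0. In all 4 genes both doxorubicin groups lie above all saline hearts, and the DOX+AICAR means lie below the DOX+saline means with overlapping points.

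DOX+AICAR against DOX+saline asks whether AICAR changed these genes on top of doxorubicin. None of the 4 passed the threshold, where 1.33% of all genes tested did (0.577% higher and 0.753% lower). The 196 genes behind this share became 36 to 461 when 1 animal was left out. Of the genes called, 43.4% were higher in DOX+AICAR as deposited, against 51.98% after median-of-ratios scaling and 51.4% after quantile normalization. At an unadjusted limma p below 0.05 in the fit over 18 libraries there was 1 of the 4, Ankrd1, where 17.6% of genes lay below that p. This count depends on the spread of the saline hearts, which that fit shares over all groups. The mean was lower in DOX+AICAR for each of the 4, where 50.7% of all genes had a log2 change below 0.

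For Nppa the groups overlapped widely, with 4316 to 5405 TPM in DOX+AICAR (median 4884) and 4154 to 6655 TPM in DOX+saline (median 5307). The log2 change was -0.11 (SE 0.30, 0.927-fold, limma adjusted p = 0.884), with a 95% interval of 0.602-fold to 1.43-fold. In the DOX+saline group, animals 1, 4 and 6 had 6100, 6537 and 6655 TPM, while animals 2, 3 and 5 had 4515, 4154 and 4376 TPM. The 6 DOX+AICAR hearts lay below the first 3 of these, and 5 of them, all but animal 7, lay between the 2 sets of values.

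For Nppb the log2 change was -0.28 (SE 0.14, 0.823-fold, 95% interval 0.668-fold to 1.01-fold, limma adjusted p = 0.322). Single hearts had 826 to 1009 TPM in DOX+AICAR (median 910) and 885 to 1319 TPM in DOX+saline (median 1183). DOX+saline animals 1, 2, 4 and 6 lay above every DOX+AICAR heart, and animals 3 and 5, at 885 and 895 TPM, lay among them.

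Acta1 showed the lowest fold of the 4, at 0.746 (log2 change -0.42, SE 0.24, 95% interval 0.528-fold to 1.05-fold, limma adjusted p = 0.369). Its level was 1165 to 2035 TPM in DOX+AICAR hearts (median 1594) and 1662 to 2770 TPM in DOX+saline hearts (median 2268). Of the 6 DOX+AICAR hearts, 4 lay below the lowest DOX+saline heart, and animals 7 and 10, at 2035 and 1865 TPM, did not.

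For Ankrd1 the log2 change was -0.23 (SE 0.07, 0.853-fold, 95% interval 0.769-fold to 0.946-fold, unadjusted p = 0.00460, limma adjusted p = 0.104). Its level was 3623 to 4170 TPM in DOX+AICAR hearts (median 3777) and 3830 to 4996 TPM in DOX+saline hearts (median 4684). All DOX+AICAR hearts but animal 10, at 4170 TPM, lay below the lowest DOX+saline heart. For animals 9 and 12, at 3828 and 3819 TPM against 3830 TPM, this gap was smaller than their counting error (0.31% and 0.34%). It passed the threshold without DOX+saline animal 5 (log2 change -0.27, limma adjusted p = 0.0485) and with array weights, which let noisier libraries count less (-0.28, limma adjusted p = 0.0293). Of all genes, the fit without animal 5 called 264 and that with array weights 1058, against 196 in the main fit.

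Taken as single values, in exact permutation tests (two-sided, each possible regrouping of the 12 libraries, no adjustment), the same differences gave p = 0.437 for Nppa, 0.0433 for Nppb, 0.0238 for Acta1 and 0.0152 for Ankrd1. The share of all genes below 0.05 in this permutation test was not computed, so these values have no background to be read against. The fit over 18 libraries uses 1 spread for all groups, and Nppa, Nppb and Acta1 varied most in saline hearts. With only the 12 doxorubicin libraries, the SE was 0.13 for Nppa, 0.10 for Nppb, 0.15 for Acta1 and 0.07 for Ankrd1 with the same log2 changes, and the limma adjusted p was 0.735, 0.252, 0.215 and 0.160.

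**Figure D3:**
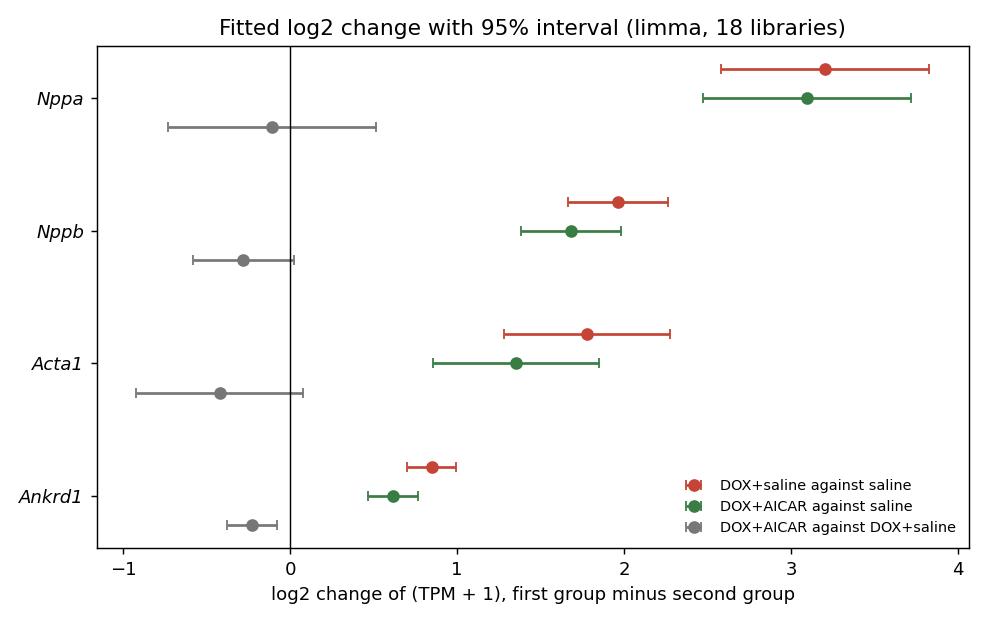
Points are fitted log2 changes of (TPM + 1), first group minus second group, and bars their 95% intervals, for the 3 comparisons in each gene (limma, 18 libraries). The intervals against saline lie above 0 for all 4 genes. Those of DOX+AICAR against DOX+saline cross 0 for all but Ankrd1, and these intervals are not adjusted for the number of genes. They use 1 spread for all 3 groups, saline included. With only the 12 doxorubicin libraries, whose intervals are not shown, the SE was lower for Nppb (0.10 against 0.14) and Acta1 (0.15 against 0.24).

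The order of the 4 genes by level was not the same with and without doxorubicin. In DOX+AICAR hearts Nppa was highest, followed by Ankrd1, Acta1 and Nppb, and Nppa lay above Ankrd1 in 6 of 6 hearts. In DOX+saline hearts the order of the means was the same, but the ranges of Nppa and Ankrd1 overlapped, and Nppa lay above Ankrd1 in 5 of 6 hearts, all but animal 3. In saline hearts Ankrd1 was highest in every animal, at 2495 ± 236 TPM. There Acta1 (678 ± 240 TPM) and Nppa (673 ± 421 TPM) did not differ beyond their spread, Acta1 being the higher one in 4 of 6 hearts, and Nppb was lowest by its mean. Together the 4 genes held 1.13 ± 0.0687% of the TPM total in DOX+AICAR, 1.32 ± 0.207% in DOX+saline and 0.414 ± 0.0772% in saline (SD, n = 6 each).

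The ratio of Nppa to Nppb was higher in every doxorubicin heart than in any saline heart. It averaged 5.40 ± 0.593 in DOX+AICAR, 4.79 ± 0.500 in DOX+saline and 2.19 ± 0.961 in saline (SD, n = 6 each). It ranged over 4.67 to 6.45 among DOX+AICAR hearts, 3.90 to 5.41 among DOX+saline hearts and 1.27 to 3.38 among saline hearts, so that the doxorubicin groups overlapped each other only. Saline hearts spread widely in this ratio, with 3.28 in animal 53, 3.38 in animal 55 and 1.27 to 1.48 in animals 51, 52 and 54, while animal 56 lay between at 2.35. These ratios are given as a description, without a test.

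**Figure D4:**
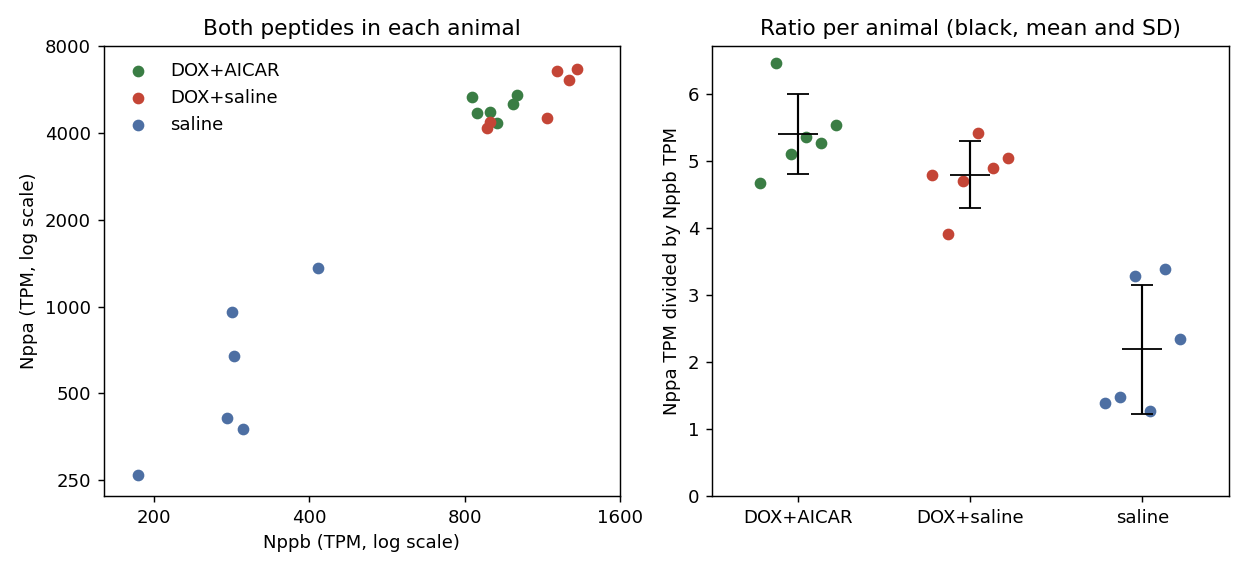
Left, Nppa against Nppb in each heart, both in TPM on log axes; right, Nppa TPM divided by Nppb TPM in each heart, with the mean and SD of 6 animals in black. Saline hearts spread 5.25-fold in Nppa and 2.23-fold in Nppb, and all 12 doxorubicin hearts have a ratio of 3.90 or more, above the highest saline ratio of 3.38.

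The spread between animals also depended on the gene and the group. The coefficient of variation of Nppa was 8.54% in DOX+AICAR, 21.5% in DOX+saline and 62.5% in saline, where it was above that of all 405 other genes within 2-fold of its level. Saline animal 53 had 1364 TPM and animal 51 had 260 TPM. For Acta1 it was 18.2% in DOX+AICAR, 18.8% in DOX+saline and 35.4% in saline, and in saline the single low value was that of animal 56, at 260 TPM, where the other saline hearts had 619 to 992 TPM. For Nppb it was 8.13% in DOX+AICAR, 16.8% in DOX+saline and 25.1% in saline. Ankrd1 varied least of the 4, with 4.94% in DOX+AICAR, 10.4% in DOX+saline and 9.44% in saline. High spread for the level was not particular to Nppa in saline hearts. Among genes within 2-fold of its level there, the coefficient stood at percentile 99.5 for Acta1, 97.8 for Nppb and 92.6 for Ankrd1. The 4 genes had 1462 to 120448 recovered reads per library, which gives a counting error of at most 2.62%, below each of these coefficients. Libraries held 25060698 to 30806748 recovered reads in DOX+AICAR, 24897317 to 29932263 recovered reads in DOX+saline and 20566761 to 31316160 in saline.

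Across animals of 1 group, the members were compared in 26 relations: 18 between pairs of genes within each of the 3 groups, and 8 between each gene and the library's position on a line over all other genes, where the DOX+saline mean is 1 and the saline mean 0. Relations with the position were computed in DOX+AICAR and DOX+saline only. All 26 Pearson correlations were above 0, while Spearman's rho was below 0 in saline hearts for Nppb with Acta1 (-0.0857) and Nppb with Ankrd1 (-0.143). How often other genes correlate positively was not computed. Of the 26, 0 passed the threshold after adjustment over the 26, and 3 had an unadjusted exact permutation p below 0.05. In DOX+saline hearts Nppa and Nppb gave r = 0.867 (exact permutation p = 0.0208, adjusted p = 0.271) and rho = 0.943 (exact permutation p = 0.0167, adjusted p = 0.217, n = 6), and r = 0.747 without the 2 animals farthest from the median of Nppa. Acta1 and Ankrd1 gave r = 0.910 in the same hearts (exact permutation p = 0.0181, adjusted p = 0.271, n = 6) and rho = 0.943 (exact permutation p = 0.0167, adjusted p = 0.217). Without the 2 animals farthest from the median of Acta1, r was 0.237. Leaving them out also narrows the range of Acta1, so this fall does not tell whether the relation rested on them. In saline hearts Nppa and Nppb gave r = 0.819 (exact permutation p = 0.0444, adjusted p = 0.325, n = 6) and rho = 0.600 (exact permutation p = 0.242, adjusted p = 0.483), and r = -0.282 without the 2 animals farthest from the median of Nppa. In DOX+saline hearts animal 3 parted the genes, being lowest of its group in Nppa and Nppb, at 4154 and 885 TPM, while its Acta1 and Ankrd1, at 2158 and 4667 TPM, lay near the middle.

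Positions on this line, taken without the 4 genes and without the library itself, were 0.716 to 0.948 among DOX+AICAR hearts and 0.634 to 1.22 among DOX+saline hearts. Within DOX+AICAR the highest correlations with this position were those of Acta1, at r = 0.763 (exact permutation p = 0.0931, adjusted p = 0.346, n = 6; rho = 0.371, exact permutation p = 0.497, adjusted p = 0.646), and Nppb, at r = 0.758 (exact permutation p = 0.0569, adjusted p = 0.325, n = 6; rho = 0.886, exact permutation p = 0.0333, adjusted p = 0.289). Without the 2 animals farthest from the median position, r was -0.326 for Acta1 and 0.808 for Nppb. Within DOX+saline the highest was that of Ankrd1, at r = 0.797 (exact permutation p = 0.0750, adjusted p = 0.325, n = 6; rho = 0.657, exact permutation p = 0.175, adjusted p = 0.483), and r = 0.778 without the 2 farthest animals. DOX+saline animals 1 and 6, at the 2 highest positions, had 4701 and 4996 TPM of Ankrd1, and animal 2, at position 0.634, had 3989 TPM. The order was not strict: animal 5, at position 0.804, had the lowest Ankrd1 of the group, at 3830 TPM, and animal 4, at position 0.883, had 4762 TPM, above animal 1.

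Genes whose values moved most like Nppa and Acta1 across animals were found by the correlation of log2(TPM + 1), each value taken as the deviation from its group mean, over 18 libraries. Saline hearts weigh most in it, since their SD of log2(TPM + 1) was largest, 0.90 for Nppa and 0.66 for Acta1. The SD of Nppa was 0.12 in DOX+AICAR and 0.31 in DOX+saline, and that of Acta1 was 0.28 in both. For Nppa the most alike was ENSRNOG00000019651, with r = 0.846. It averaged 68.6 ± 4.59 TPM in DOX+AICAR, 71.2 ± 5.14 TPM in DOX+saline and 41.9 ± 4.95 TPM in saline (SD, n = 6 each) and rose in DOX+saline against saline (log2 change 0.75, SE 0.07, limma adjusted p = 1.41e-07). Nppb stood at place 9 for likeness to Nppa, with r = 0.771. Ankrd1 stood at place 335 (r = 0.576) and Acta1 at place 6375 (r = 0.141). Within single groups Nppa with Nppb gave r = 0.192 in DOX+AICAR, 0.867 in DOX+saline and 0.819 in saline hearts (n = 6 each). For Acta1 the most alike was ENSRNOG00000009047, with r = 0.848. It averaged 765 ± 172 TPM in DOX+AICAR, 1156 ± 372 TPM in DOX+saline and 35.6 ± 24.6 TPM in saline (SD, n = 6 each), and rose in DOX+saline against saline (log2 change 5.23, SE 0.39, limma adjusted p = 1.16e-08). Among the 4 genes, Ankrd1 was the one most like Acta1 in this measure, with r = 0.514, but it stood only at place 364 for likeness to Acta1. The files and reference tables used here attach no name to these identifiers, and these correlations, the highest of 14732 genes, are a description.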

How the data were processed

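RNA of 18 rat hearts was measured in 3 groups of 6. Per the labels, polyadenylated RNA was made into stranded, paired-end libraries. The submitters' processing notes name bcl2fastq 2.17.1.14, HISAT2, featureCounts of Subread 1.5.0 and the build Rnor_6.0; the sources used here give neither the annotation release nor the strand setting. The authors deposited TPM values for 32545 Ensembl identifiers, which sum to 1000000 in each library. Of these identifiers, 0 matched the reference gene table (47357 genes, assembly GRCr8), so 4 pathway lists and 8 lists of cell type markers fixed by symbol were not counted, and the share of atrial tissue or other cell types was not tested.

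Tests used limma 3.58.1 (R 4.3.3) on log2(TPM + 1) for the 14732 genes that reached 1 TPM in 6 or more libraries, with a mean per group, a mean-variance trend and all 18 libraries in 1 fit. P-values were two-sided and adjusted by Benjamini-Hochberg over all these genes, with a threshold of 0.05. Folds are 2 to the power of differences in log2(TPM + 1), which understates the change of low genes. Whole reads were recovered from the deposited TPM values: all 20828 genes above 0 in at least 6 libraries came out whole within 0.001 reads, and 0 of 200 did with wrong scale factors. These reads have no molecular identifiers, so counting errors cover counting only. Correlations within groups of 6 used exact permutation over 720 pairings. Scripts were tested on simulated data. Alternatives changed the pseudocount, filter, scaling, variance model, libraries or test. The 4 genes, the gene lists and the alternatives were chosen with earlier results of these data known. Genes named besides the 4 are the most alike of Nppa and of Acta1, under a rule that names at most 2 identifiers where the table has no symbols. Promoter windows were taken from RefSeq.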

Additional observations from a re-analysis of the deposited data

Results flagged for a closer look

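Single animals far from their group were looked for in 21 groups of 6 values: the TPM of each of the 4 genes, the ratio of Nppa to Nppb, the position between the saline and DOX+saline means and the number of recovered reads. Dixon's ratio for the highest or lowest animal passed its 95% critical value in 0 of 21, where chance picks about 1 in 20 groups.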

How the results depend on the processing

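Against saline, all 4 genes kept their direction and their call in each of 32 alternatives, in DOX+saline and in DOX+AICAR alike. Over the alternative fits the log2 change in DOX+saline against saline ran from 2.98 to 3.45 for Nppa, 1.84 to 2.07 for Nppb, 1.52 to 1.91 for Acta1 and 0.72 to 0.91 for Ankrd1. In DOX+AICAR against DOX+saline, the sign of Nppa turned in 1 alternative, without DOX+saline animals 1 and 6 (log2 change 0.026, limma adjusted p = 0.981), a pair that an earlier analysis of these data singled out and 2 of the 3 highest of their group in Nppa; its adjusted p ranged from 0.735 to 0.981. Unadjusted exact permutation tests were below 0.05 for Nppb (log2 change -0.28), Acta1 (-0.42) and Ankrd1 (-0.23), unlike the adjusted fit, and Ankrd1 was also called with array weights (-0.28) and without DOX+saline animal 5 (-0.27). The share of all genes below 0.05 in the permutation test was not computed. The fit without DOX+saline animal 5 called 264 genes in all. Over the alternative fits the adjusted p of Ankrd1 lay between 0.0293 and 0.214, that of Nppb between 0.110 and 0.590 and that of Acta1 between 0.147 and 0.534. Leaving out each animal in turn gave log2 changes in this comparison of -0.18 to -0.042 for Nppa, -0.35 to -0.23 for Nppb, -0.50 to -0.33 for Acta1 and -0.27 to -0.20 for Ankrd1. The count of all genes called in this comparison, 196, was not stable: 321 with quantile normalization, 16 with only the 12 libraries compared, 1058 with array weights, and 36 to 461 without 1 animal, and the cause was not tested. It moved by more than 1.5 times without DOX+AICAR animal 9, 10, 11 or 12 (39, 36, 60 and 89), DOX+saline animal 1, 2, 3, 4 or 6 (49, 461, 43, 121 and 48) or saline animal 52, 53, 54, 55 or 56 (130, 105, 106, 108 and 126). Counts against saline stayed within 1.5 times. Voom on recovered reads with median-of-ratios factors was added after the data were seen. No paired analysis was possible because the groups share no animal numbers. Counting error of the 4 genes was at most 2.62% in any library.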

Other observations

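Saline animals 53 and 55, with the highest Nppa of their group (1364 and 957 TPM), also lay highest of the saline hearts on the line over all genes but these 4 where the DOX+saline mean is 1 and the saline mean 0, at 0.0993 and 0.0855, where the other 4 saline hearts lay at -0.0372 to 0.0272. The libraries of animals 53 and 55 also had the most recovered reads of the saline group, 31316160 and 30085135, where the other saline libraries had 20566761 to 26512254. The position on the line was noticed after the values were seen. Neither it nor a link to the number of reads was tested.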
